A study of Drosophila melanogaster with 8 samples.

Results

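Cytochrome P450 enzymes, glutathione S-transferases and UDP-glycosyltransferases form the main enzyme families by which insects modify, conjugate and clear foreign compounds, hormones and lipid products. They are described here together with 2 peroxide-removing enzymes, catalase (Cat) and peroxiredoxin 5 (Prx5), in wing imaginal discs of BEAF-32 mutant and wildtype Drosophila melanogaster larvae. Members were chosen by measured values, since they come from the authors' deposited table, which lists transcripts that differed at least 1.5-fold between mutant and wildtype arrays. A gene was a member if its symbol in that table, or its current RefSeq symbol, began with Cyp and a digit, with Gst or with Ugt, or was Cat or Prx5. The rule found 49 of the 3850 genes named in that table: 22 Cyp, 12 Gst and 13 Ugt genes, Cat and Prx5. One of the 22, Cyp1, carries the letters of the P450 family but encodes a cyclophilin, a peptidyl-prolyl isomerase and no P450, so that 48 members belong to the enzyme families named above.

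P450 enzymes insert oxygen into their substrates with electrons from a reductase or, in mitochondria, from a ferredoxin. Glutathione S-transferases then couple reactive products to glutathione, and UDP-glycosyltransferases couple hydroxyl groups to a sugar. Catalase breaks down hydrogen peroxide, and Prx5 reduces peroxides with electrons from thioredoxin. In larvae many of these genes are known for their expression in midgut, Malpighian tubule and fat body. A few act on developmental signals, among them Cyp18a1, which inactivates the moulting hormone 20-hydroxyecdysone.

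The mutant larvae were labelled as homozygous for a BEAF-32 mutation, the gene for a chromatin boundary protein, with the allele not stated in the labels. The other larvae were labelled Wildtype OR. The strain field reads Orgon R for both genotypes, both were in the last larval instar and the mutant was matched for age. There were 4 single-colour Cy3 arrays per genotype, with titles numbered 1_1, 1_2, 2_1 and 2_2, and array values below are always in that order. Arrays of a genotype with the same first number correlated at 0.9977 to 0.9986 across transcripts and were averaged to 1 replicate, which gave 2 replicates per genotype. The series design text names biological and experimental replicates, but no label says which number of a title stands for which. No label ties a replicate to its own animals or dissection, so the spread between replicates may be technical. Changes are mutant minus wildtype on the log2 scale, with a standard error from limma (n = 2 replicates per genotype throughout), and SD is over these replicates.

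The median of an array was 9.364 to 9.433 and its minimum 6.833 to 6.896. Wildtype replicate 1 had the widest arrays, with lower quartiles of 7.946 and 7.951, against 8.067 to 8.159 on all other arrays. Its upper quartiles were 11.312 and 11.292, against 11.127 to 11.18, and its maxima 15.657 and 15.757, against 15.34 to 15.391. The part of this width in the gaps between wildtype replicates was not tested. Arrays of different mutant replicates correlated at 0.9852 to 0.987, and those of different wildtype replicates at 0.9662 to 0.97. The BEAF-32 transcript read 8.49, 8.47, 8.40 and 8.41 on the mutant arrays, against 10.09, 11.94, 10.28 and 10.15 on the wildtype arrays. Of 15 markers fixed for wing disc epithelium 6 were in the authors' deposited table, 2 higher (rn 1.47, wg 1.08) and 4 lower in the mutant (en -1.36, hth -0.93, ap -0.88, Dll -0.79). The log2 of their summed signal was 14.45 to 14.62 on mutant arrays and 14.71 to 14.99 on wildtype arrays. For the 11 listed salivary gland markers, all lower in the mutant, that sum was 13.18 to 13.33 on mutant arrays and 17.60 to 17.74 on wildtype arrays. For 11 listed fat body markers, of which 9 were lower and Yp1 and Yp2 higher, it was 13.51 to 15.19 and 17.20 to 17.24. Midgut markers, all 5 of them lower, summed to 13.39 to 13.97 on mutant arrays and 14.98 to 15.39 on wildtype arrays. The 8 listed haemocyte markers were all higher and summed to 15.30 to 15.42 on mutant arrays and 13.34 to 14.02 on wildtype arrays. Of 4 listed trachea markers 3 were higher (serp 1.33, verm 1.31 and, with overlapping arrays, uif 0.86), and dys was lower (-1.70). All 4 summed to 15.17 to 15.29 on mutant arrays and 14.00 to 14.21 on wildtype arrays. The highest signals in that sum were those of verm and serp, with mutant means of 14.42 and 13.50, against 8.63 for dys. Of 3 listed Malpighian tubule markers 2 were higher and 1 lower, and their sums overlapped, at 11.04 to 11.67 on mutant arrays and 11.10 to 11.56 on wildtype arrays. The part of these tissues in the values below was not tested, and fewer cells of a type and less RNA per cell cannot be told apart in bulk tissue.

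Of the 49 members 28 were higher and 21 lower in the mutant, with 14 above and 14 below by over 2-fold. The P450 genes were mostly higher (14 of 21), as were the Gst genes (8 of 12). The Ugt genes were divided (6 higher, 7 lower), and Cat and Prx5 were both lower. The median size of the change was 1.06 for members and 0.88 for all named genes, and 57.1% of members against 50.4% of named genes were higher. These differences chose the members, so they are a description and no test of them is made. In a limma fit over 16108 features, 23 members passed an adjusted p of 0.05 (11 higher, 12 lower): 10 Cyp, 6 Gst and 5 Ugt genes, Cat and Prx5. That threshold was passed by 7.26% of all features (2.79% higher, 4.46% lower) and by 30.4% of named genes (11.7% higher, 18.7% lower). Since every named gene was listed for a difference, nothing is read from the members' count. That count also depended strongly on which replicates were kept. A fit with 1 replicate left in a genotype takes its spread from the other genotype, and nothing is read from counts of such fits. On 43 members the 4 mutant arrays did not overlap the 4 wildtype arrays, as on 89.4% of named genes and 49.7% of all features. Nothing is read from this count, or from a lack of overlap in the genes and families below.

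Among P450 genes the one with the highest change was Cyp18a1 (FBgn0010383), the enzyme that clears 20-hydroxyecdysone. It read 11.14, 11.05, 10.48 and 10.39 on the mutant arrays, against 7.82, 7.81, 7.78 and 7.69 on the wildtype arrays (log2 change 2.99, SE 0.26, 7.94-fold). The mutant replicates differed from each other by 0.66, while the wildtype arrays lay within a narrow range, and every mutant array was far above them. Next was Cyp6a20 (FBgn0033980), known for a role in male aggression in adult flies, at 10.71, 10.71, 11.00 and 11.03 on the mutant arrays, against 7.71, 7.62, 8.22 and 8.23 on the wildtype arrays (log2 change 2.92, SE 0.25, 7.56-fold). The groups were again well apart, with both arrays of wildtype replicate 1 below those of wildtype replicate 2.

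The Cyp6d subfamily was divided. Cyp6d2 (FBgn0034756) read 11.30, 11.19, 11.48 and 11.52 on the mutant arrays, against 9.06, 9.18, 9.42 and 9.23 on the wildtype arrays (log2 change 2.15, SE 0.16). Cyp6d4, the subfamily's second member among the higher genes, changed by 0.99 (SE 0.12), with mutant arrays between 10.98 and 11.03 and wildtype arrays between 9.94 and 10.08. Cyp6d5 (FBgn0038194) went the other way, at 9.53, 9.51, 9.11 and 9.44 on the mutant arrays, against 11.26, 11.46, 11.56 and 11.54 on the wildtype arrays (log2 change -2.06, SE 0.16). None of these 3 genes had overlapping arrays.

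Both listed genes of the Cyp9 family were higher in the mutant. Cyp9c1 (FBgn0015040) read 12.14, 12.16, 12.38 and 12.42 on the mutant arrays, against 10.65, 10.68, 10.78 and 10.48 on the wildtype arrays (log2 change 1.63, SE 0.14). Cyp9b2 (FBgn0015039) read 10.78, 10.72, 10.56 and 10.50 on the mutant arrays, against 9.66, 9.64, 9.34 and 9.33 on the wildtype arrays (log2 change 1.15, SE 0.17). In both genes the gap between the genotypes was several times the gap between replicates. Cyp6a9 (FBgn0013771), a neighbour of Cyp6a20, read 9.82, 9.60, 10.12 and 10.29 on the mutant arrays, against 8.27, 8.28, 8.78 and 8.76 on the wildtype arrays (log2 change 1.43, SE 0.27), with replicates of each genotype further apart than for the Cyp9 genes.

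The P450 gene with the lowest change was Cyp310a1 (FBgn0032693), at 8.18, 8.20, 8.27 and 8.46 on the mutant arrays, against 10.50, 10.53, 10.20 and 10.48 on the wildtype arrays (log2 change -2.15, SE 0.14, 4.44-fold). All mutant arrays lay well below all wildtype arrays. Cyp4g1 (FBgn0010019), which in oenocytes makes the hydrocarbons that waterproof the cuticle, read 8.12, 7.98, 7.84 and 7.85 on the mutant arrays, against 10.60, 10.56, 8.84 and 8.76 on the wildtype arrays (log2 change -1.74, SE 0.63). Its wildtype replicates differed by 1.79, more than the genotypes did. Against wildtype replicate 1 alone the change was -2.64 and against wildtype replicate 2 alone -0.85. Of the fat body markers, Adh had a similar split, at 7.81, 7.80, 8.02 and 8.09 on the mutant arrays, against 10.47, 10.53, 8.42 and 8.39 on the wildtype arrays. The wildtype gap was 2.09 for Adh, 0.87 for apolpp and -0.46 to 0.27 for the other 9 fat body markers, and the part of fat body in the values of Cyp4g1 was not tested.

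Cyp12a4 (FBgn0038681), a mitochondrial P450 linked to lufenuron resistance when overexpressed, read 8.69, 8.55, 8.91 and 8.90 on the mutant arrays, against 9.71, 9.82, 10.30 and 10.18 on the wildtype arrays (log2 change -1.24, SE 0.22). Its relative Cyp12d1-d, a drug-inducible gene with a near-identical duplicate, Cyp12d1-p, differed by -0.59 (SE 0.17). No label says whether the probes separate these duplicates. Cyp4e2 (FBgn0014469) read 10.96, 10.85, 11.28 and 11.13 on the mutant arrays, against 12.12, 12.17, 12.11 and 12.06 on the wildtype arrays (log2 change -1.06, SE 0.16). The cyclophilin gene Cyp1 (FBgn0004432) read 12.04, 12.09, 12.31 and 12.12 on the mutant arrays, against 13.27, 13.03, 13.21 and 13.21 on the wildtype arrays (log2 change -1.04, SE 0.13). The arrays of the genotypes did not overlap for any of these 4 genes.

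The other 8 members of the Cyp group had changes of -0.60 (Cyp6a14) to 1.01 (Cyp28a5), and the 7 apart from Cyp6a14 were higher. Cyp303a1, needed for the structure of sensory bristles, differed by 0.84 (SE 0.24), at 1.13 against wildtype replicate 1 and 0.54 against wildtype replicate 2. Cyp4aa1 (0.81), Cyp313b1 (0.93), Cyp6a21 (0.71) and Cyp6a23 (0.90) shared this order, with every array of wildtype replicate 1 below every array of wildtype replicate 2. Cyp313a4 was the only Cyp member whose genotypes overlapped, at 10.58, 10.53, 10.48 and 10.84 on the mutant arrays, against 8.99, 8.99, 10.49 and 10.70 on the wildtype arrays. Its change was 1.62 against wildtype replicate 1 and 0.01 against wildtype replicate 2.

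**Figure D1:**
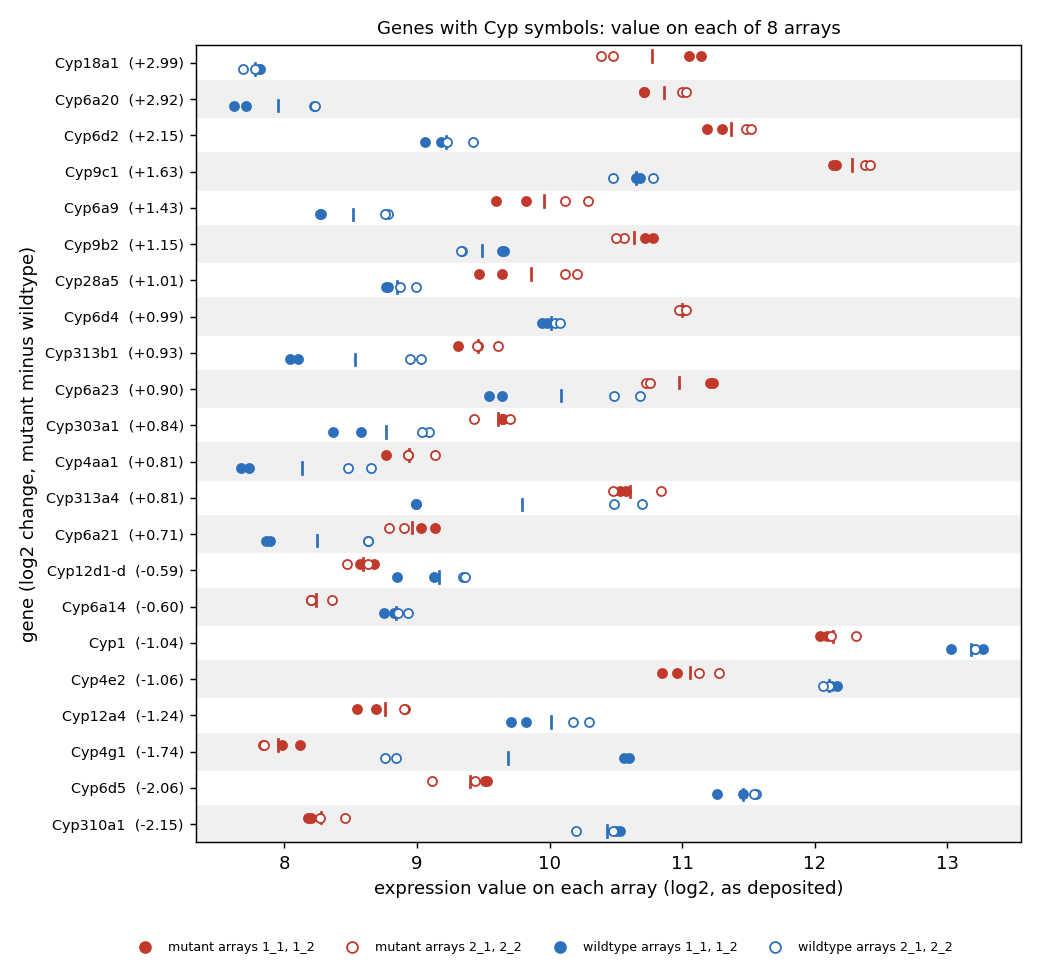
Deposited log2 value (horizontal axis) of each Cyp member on each array, with genes in order of their log2 change, which stands beside the name. Red points are mutant arrays and blue points wildtype arrays, filled for replicate 1 and open for replicate 2, and short bars are genotype means. Cyp18a1 and Cyp6a20 lie at the top with changes of 2.99 and 2.92 and Cyp310a1 at the bottom with -2.15, while the blue points of Cyp4g1 and Cyp313a4 fall into separate pairs.

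The glutathione S-transferases higher in the mutant came mainly from the delta and epsilon classes, in which most transferases linked to insecticide resistance are found. GstD3 (FBgn0010039) read 12.22, 12.36, 12.31 and 12.21 on the mutant arrays, against 9.79, 9.74, 9.48 and 9.59 on the wildtype arrays (log2 change 2.63, SE 0.14, 6.18-fold). GstE6 (FBgn0063494) read 10.24, 10.46, 10.25 and 10.45 on the mutant arrays, against 7.72, 7.73, 7.89 and 7.89 on the wildtype arrays (log2 change 2.55, SE 0.13). In both genes replicates of a genotype lay close together and the genotypes far apart. GstD9 (FBgn0038020) read 11.09, 11.03, 10.93 and 10.92 on the mutant arrays, against 9.52, 9.60, 9.11 and 9.07 on the wildtype arrays (log2 change 1.67, SE 0.20). GstE5 (FBgn0063495) read 9.89, 9.92, 9.78 and 9.92 on the mutant arrays, against 8.40, 8.37, 9.06 and 9.01 on the wildtype arrays (log2 change 1.17, SE 0.25). The theta-class gene GstT4 (FBgn0030484, CG1681 in the authors' deposited table) read 9.71, 9.62, 10.03 and 9.95 on the mutant arrays, against 8.85, 8.64, 8.75 and 8.68 on the wildtype arrays (log2 change 1.10, SE 0.16). All 3 had every mutant array above every wildtype array.

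The remaining higher genes were closer to the 1.5-fold limit. GstE7 (FBgn0063493) read 8.79, 8.67, 8.59 and 8.66 on the mutant arrays, against 7.83, 7.84, 7.96 and 8.08 on the wildtype arrays (log2 change 0.75, SE 0.14). GstE2 (FBgn0063498) read 9.33, 9.21, 9.60 and 9.64 on the mutant arrays, against 8.29, 8.34, 9.12 and 9.18 on the wildtype arrays (log2 change 0.71, SE 0.33). The change of GstE2 was 1.13 against wildtype replicate 1 and 0.30 against wildtype replicate 2, and it was the only Gst member with a wildtype gap larger than its genotype change. GstD10 (FBgn0042206) read 9.19, 9.13, 9.17 and 9.36 on the mutant arrays, against 8.55, 8.58, 8.66 and 8.60 on the wildtype arrays (log2 change 0.61, SE 0.12).

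Of the 4 lower Gst genes, 2 belong to classes with a known role outside detoxification of foreign compounds. GstS1 (FBgn0010226), the sigma-class enzyme abundant in flight muscle that conjugates products of lipid peroxidation, read 11.76, 11.67, 11.77 and 11.74 on the mutant arrays, against 13.32, 13.27, 13.14 and 13.23 on the wildtype arrays (log2 change -1.51, SE 0.12, 2.84-fold). Of 10 muscle markers fixed 5 were listed, all lower in the same arrays. Their summed log2 signal was 11.36 to 11.51 on mutant arrays and 12.79 to 12.84 on wildtype arrays. The part of muscle in the values of GstS1 was not tested. GstZ2 (FBgn0037697, CG9363 in the authors' deposited table) is of the zeta class, which acts in tyrosine breakdown. It was the only member with over 1 listed transcript. The transcript with the higher mean read 9.86, 9.85, 9.91 and 9.96 on the mutant arrays, against 11.67, 11.62, 11.15 and 11.04 on the wildtype arrays (log2 change -1.47, SE 0.22), and its other listed transcript changed by -1.49. GstE12 (FBgn0027590, CG16936) read 10.58, 10.70, 10.77 and 10.80 on the mutant arrays, against 11.57, 11.40, 11.40 and 11.37 on the wildtype arrays (log2 change -0.72, SE 0.13). GstE1 (FBgn0034335), which conjugates the lipid peroxidation product 4-hydroxynonenal, read 8.72, 8.72, 8.87 and 8.90 on the mutant arrays, against 9.63, 9.53, 9.26 and 9.49 on the wildtype arrays (log2 change -0.67, SE 0.15). The genotypes overlapped for none of the 12 Gst genes, and 89.4% of named genes and 49.7% of all features likewise had no overlap. Delta and epsilon genes are close copies of each other, and no label says whether the probes separate them.

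The peroxide-removing enzymes among the members, Cat and Prx5, were both lower in the mutant. Other such genes, from the antioxidant list given below, went both ways. The peroxiredoxin genes Prx6c (1.10) and Prx6b (0.74) and the catalase gene Irc (1.07) were higher. The peroxiredoxin genes Prx4 (-0.88) and Prx6a (-0.68) were lower. Cat (FBgn0000261) read 11.25, 11.19, 11.04 and 10.95 on the mutant arrays, against 12.50, 12.44, 12.49 and 12.35 on the wildtype arrays (log2 change -1.34, SE 0.14, 2.53-fold). Prx5 (FBgn0038570, CG7217) read 10.42, 10.44, 10.25 and 10.24 on the mutant arrays, against 11.65, 11.52, 11.35 and 11.28 on the wildtype arrays (log2 change -1.11, SE 0.16, 2.16-fold). Cat and Prx5 stayed lower against either wildtype replicate, with changes of -1.36 and -1.31 for Cat and of -1.25 and -0.97 for Prx5 against replicates 1 and 2.

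**Figure D2:**
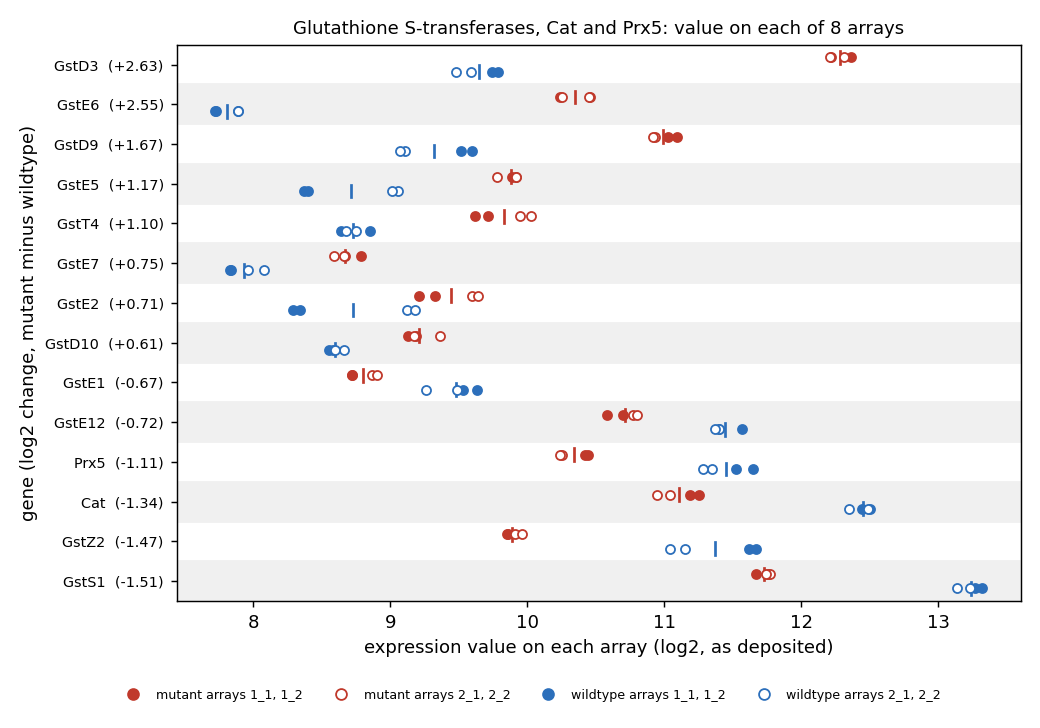
Deposited log2 value (horizontal axis) of each Gst member, Cat and Prx5 on each array, in order of log2 change. Red points are mutant and blue points wildtype arrays, filled for replicate 1 and open for replicate 2, and short bars are genotype means. Red and blue points overlap for none of the 14 genes, as for 89.4% of named genes and 49.7% of all features. GstD3 (2.63) and GstE6 (2.55) stand furthest to the mutant side.

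The Ugt genes held both the lowest change of all members and the most cases in which wildtype replicates disagreed. Ugt36D1 (FBgn0032713, CG17323 in the authors' deposited table) read 7.69, 7.63, 7.46 and 7.42 on the mutant arrays, against 10.55, 10.42, 10.30 and 10.42 on the wildtype arrays (log2 change -2.87, SE 0.14, 7.33-fold). Ugt301D1 (FBgn0032684, CG10178) read 7.92, 7.82, 7.95 and 7.94 on the mutant arrays, against 9.83, 9.81, 9.99 and 9.88 on the wildtype arrays (log2 change -1.97, SE 0.12). Both had close replicates and genotypes far apart. Ugt37A3 (FBgn0038083, CG5999) read 7.86, 7.67, 7.80 and 7.92 on the mutant arrays, against 9.34, 9.50, 9.87 and 9.95 on the wildtype arrays (log2 change -1.85, SE 0.21). Ugt302K1 (FBgn0040251, Ugt86Di in the file) read 9.69, 9.76, 9.42 and 9.58 on the mutant arrays, against 10.82, 11.07, 11.09 and 11.23 on the wildtype arrays (log2 change -1.43, SE 0.16). These 4 genes were lower against both wildtype replicates, with -1.33 the smallest such change. Ugt316A1 (FBgn0036842, CG3797) read 10.99, 11.05, 11.07 and 11.09 on the mutant arrays, against 11.69, 11.70, 11.68 and 11.75 on the wildtype arrays (log2 change -0.66, SE 0.12), a small difference with close replicates.

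Only 1 Ugt gene was higher by over 1.5-fold against each wildtype replicate. This was Ugt302C1 (FBgn0040259, Ugt86Da in the file), at 12.35, 12.38, 12.38 and 12.27 on the mutant arrays, against 11.08, 10.97, 10.85 and 11.01 on the wildtype arrays (log2 change 1.37, SE 0.12). The other 5 higher Ugt genes had a wildtype replicate 2 close to the mutant. Ugt37C2 (FBgn0040262, Ugt36Ba) read 10.42, 10.48, 11.06 and 11.07 on the mutant arrays, against 9.07, 8.87, 10.60 and 10.33 on the wildtype arrays (log2 change 1.04, SE 0.57). Ugt303A1 (FBgn0040252, Ugt86Dh) read 10.11, 9.85, 10.05 and 10.07 on the mutant arrays, against 8.78, 8.75, 9.80 and 9.90 on the wildtype arrays (log2 change 0.71, SE 0.39). Ugt37E1 (FBgn0040261, Ugt36Bb) read 8.80, 8.71, 9.16 and 9.30 on the mutant arrays, against 7.86, 7.80, 8.83 and 8.88 on the wildtype arrays (log2 change 0.65, SE 0.41). In these 3 genes mutant and wildtype arrays overlapped. Ugt35C1 (FBgn0040256, Ugt86Dd), linked to nicotine resistance of larvae, read 8.95, 8.79, 8.93 and 9.17 on the mutant arrays, against 8.07, 7.98, 8.47 and 8.50 on the wildtype arrays (log2 change 0.71, SE 0.21). Ugt307A1 (FBgn0031887, CG11289) read 8.92, 8.87, 8.78 and 9.08 on the mutant arrays, against 7.90, 7.93, 8.64 and 8.68 on the wildtype arrays (log2 change 0.62, SE 0.28). For these last genes the mutant arrays stayed above, by 0.48 and 0.25 against wildtype replicate 2.

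A pair of lower Ugt genes rested on wildtype replicate 2 alone. Ugt35E2 (FBgn0040255, Ugt86De) read 8.83, 9.00, 8.88 and 8.80 on the mutant arrays, against 9.02, 8.99, 10.57 and 10.56 on the wildtype arrays (log2 change -0.91, SE 0.55). Ugt35E1 (FBgn0040253, Ugt86Dg) read 8.96, 8.75, 8.94 and 8.98 on the mutant arrays, against 8.78, 8.83, 10.03 and 10.38 on the wildtype arrays (log2 change -0.60, SE 0.50). Wildtype replicate 1 was at the mutant level in both genes. Against it the changes were -0.13 for Ugt35E2 and 0.10 for Ugt35E1, and against wildtype replicate 2 they were -1.69 and -1.30. Ugt35E1 is thus higher in the mutant when wildtype replicate 2 is left out.

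**Figure D3:**
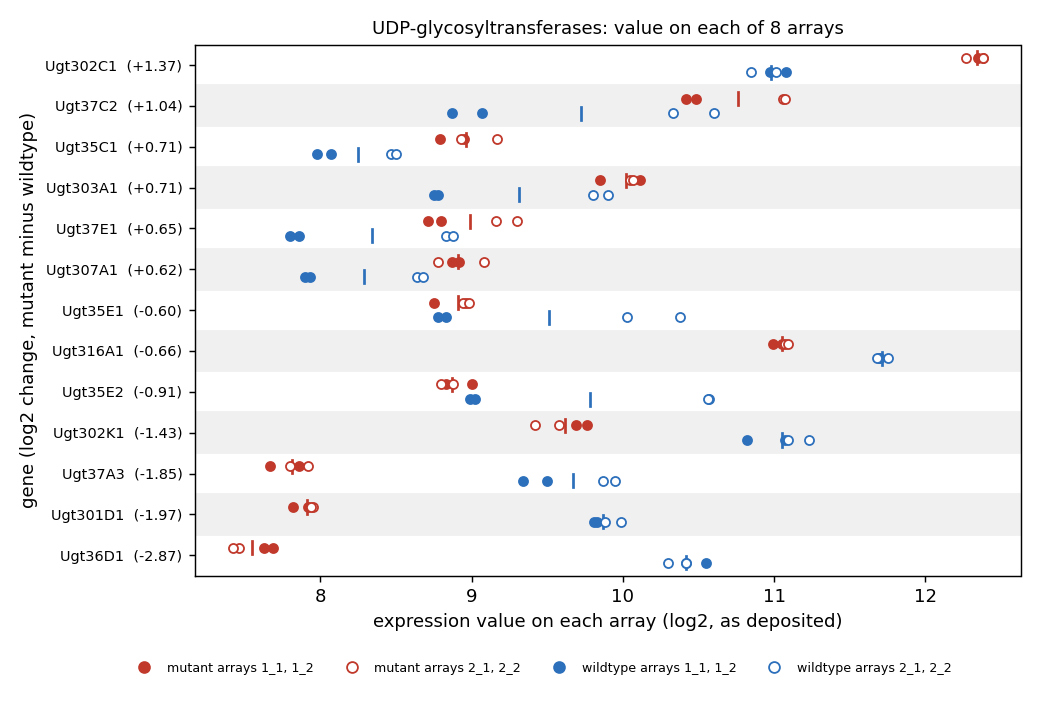
Deposited log2 value (horizontal axis) of each Ugt member on each array, in order of log2 change. Red points are mutant and blue points wildtype arrays, filled for replicate 1 and open for replicate 2, and short bars are genotype means. Ugt36D1 (-2.87) and Ugt302C1 (1.37) show genotypes apart with close replicates, whereas the blue points of Ugt35E1 and Ugt35E2 split into a pair at the mutant level and a pair above it.

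The gap between wildtype replicates exceeded the change between genotypes for 12 of 49 members (24.5%), against 17.5% of named genes. There were 6 such genes among 13 Ugt members, 5 among 22 Cyp members (Cyp4g1, Cyp6a21, Cyp4aa1, Cyp313a4 and Cyp6a23) and 1 among 12 Gst members. Of the 28 higher members 21 had wildtype replicate 1 below wildtype replicate 2 (75%), against 65.1% of higher named genes. Of the 21 lower members 11 had that order (52.4%), against 23.8% of lower named genes. Measured from whichever wildtype replicate was nearer, 15 members stayed higher and 16 lower by over 1.5-fold, and for named genes these counts were 954 and 1342. The median gap between replicates was 0.17 in the mutant and 0.28 in wildtype for members, against 0.17 and 0.40 for named genes. For the Ugt genes alone it was 0.09 in the mutant and 0.49 in wildtype.

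**Figure D4:**
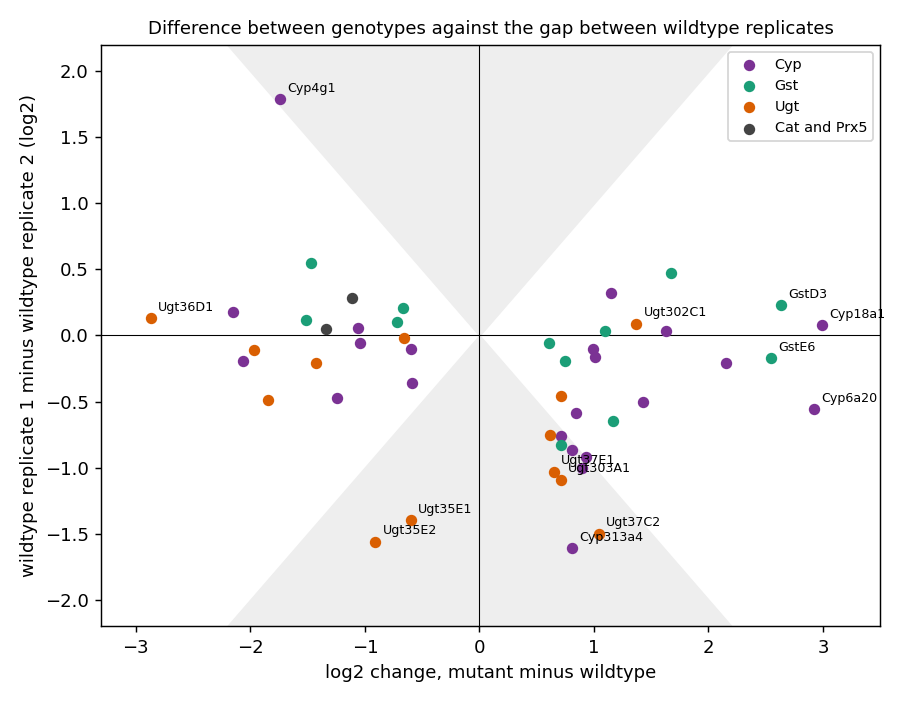
Log2 change between genotypes (horizontal axis) against the difference of wildtype replicate 1 minus wildtype replicate 2 (vertical axis, log2) for the 49 members, coloured by family. Points in the grey area have a wildtype gap larger than the genotype change. They include Cyp4g1 above and Ugt35E1, Ugt35E2, Ugt37C2 and Cyp313a4 below, while Cyp18a1, GstD3, GstE6 and Ugt36D1 lie near the zero line.

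Some members lie in tandem arrays of related genes, a feature the rule did not use. In the gene order of RefSeq (assembly Release 6 plus ISO1 MT), 6 runs of neighbouring genes of 1 family held at least 2 members. A run of 9 P450 genes held 4 members, all higher: Cyp6a23 (0.90), Cyp6a9 (1.43), Cyp6a20 (2.92) and Cyp6a21 (0.71), of which the last 3 are adjacent. A run of 10 epsilon transferase genes held 5 members. GstE5 (1.17), GstE6 (2.55) and GstE7 (0.75) are adjacent and were higher, and of the adjacent pair GstE1 and GstE2 the first was lower (-0.67) and the second higher (0.71). A run of 10 delta genes held GstD10 (0.61), GstD9 (1.67) and GstD3 (2.63), all higher. Changes along these runs were uneven, with the highest member of each at 2.55 to 2.92. Cyp6a23, Cyp6a21 and GstE2 had a wildtype gap larger than their change. Against wildtype replicate 2 alone they changed by 0.40, 0.34 and 0.30.

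The Ugt302 and Ugt35 runs held changes in both directions. In a run of 3 genes, Ugt302K1 was lower (-1.43) and Ugt302C1 higher (1.37), with Ugt302E1 between them not named here. In a run of 6 genes, the adjacent Ugt35E1 (-0.60) and Ugt35E2 (-0.91) were lower and Ugt303A1 (0.71) was higher. Each of these members had overlapping arrays and a wildtype gap larger than its change. Against wildtype replicate 1 alone Ugt35E1 changed by 0.10 and Ugt35E2 by -0.13. The remaining run, of 3 genes, held the adjacent Ugt37C2 (1.04) and Ugt37E1 (0.65), both higher. They too had overlapping arrays and wildtype gaps larger than their changes. Genes of a run with no value here were not in the authors' deposited table under a matching name, and their values on the arrays were not identified. By symbol RefSeq holds 83 P450 genes of this naming (Cyp1 and 1 gene not reported here left out), 35 Gst and 35 Ugt genes. The members are 25.3%, 34.3% and 37.1% of these, and 25.3% of all 13961 protein-coding genes matched a named gene.

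**Figure D5:**
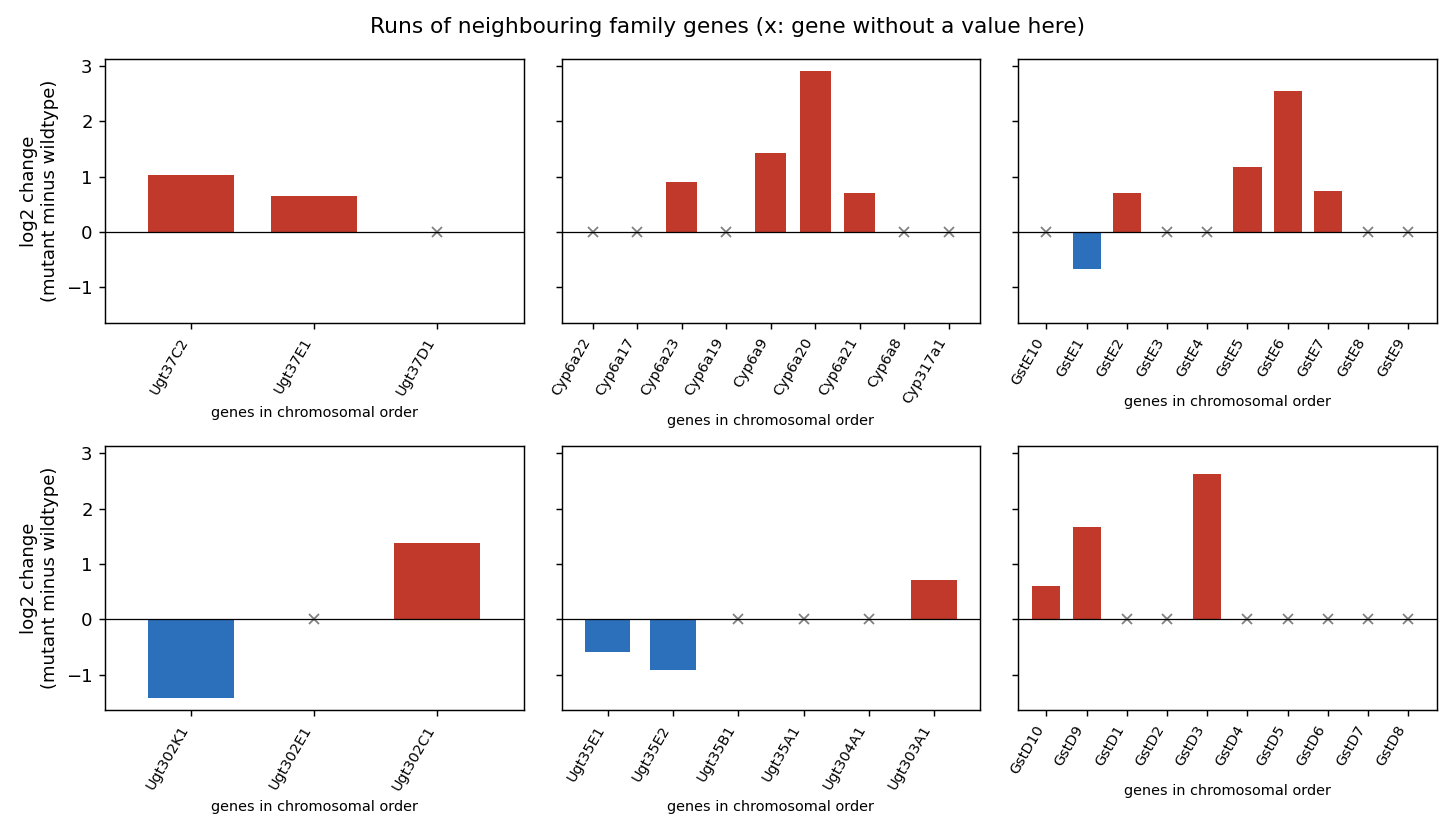
Log2 change, mutant minus wildtype (vertical axis), of members in the 6 runs of neighbouring family genes, in chromosomal order along the horizontal axis with no scale of distance. Bars are members, red above and blue below 0, and grey crosses are genes without a value here. Bars in the Cyp6a and GstD runs all point up (0.61 to 2.92), and those in the Ugt302 and Ugt35 runs point both ways. The gap between wildtype replicates is not drawn.

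Genes that work with these enzymes were counted from 4 fixed lists, again only where the authors' deposited table named them. The limma threshold was passed by 30.4% of named genes and 7.26% of all features, and nothing is read from the counts of these lists. Of 41 antioxidant and Nrf2 pathway genes 17 were listed, 10 higher and 7 lower, and 3 higher and 2 lower passed the limma threshold. Those with the smallest adjusted p were Nox, an NADPH oxidase that makes reactive oxygen with means of 11.96 ± 0.10 on mutant and 10.51 ± 0.01 on wildtype arrays (SD, n = 2), Irc, an immune-regulated catalase (log2 change 1.07), and the glutathione synthetase gene Gss2 (-1.85). The Nrf2 homologue cnc is a known activator of delta transferase genes and was named after its value was seen. A transcript listed as CG13826, which RefSeq gives as a synonym of cnc, averaged 10.15 ± 0.01 on mutant and 9.14 ± 0.55 on wildtype arrays (SD, n = 2) and did not pass. The gene of its partner, maf-S, was lower by a log2 change of -0.98 and passed.

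Of 14 genes for P450 redox partners and ecdysone synthesis 7 were listed, 3 higher and 4 lower, and 1 passed. This was shd, the P450 that makes 20-hydroxyecdysone from ecdysone, at 8.05 ± 0.04 in the mutant and 9.63 ± 0.07 in wildtype (SD, n = 2). It was lower in the same arrays in which Cyp18a1, which removes the product of shd, was higher. The ecdysone synthesis genes spok (-1.84) and sad (-1.59) came next and did not pass. Of 25 other detoxification enzymes and transporters 6 were listed, 4 higher and 2 lower, with 2 higher and 1 lower past the threshold. They were the sulfotransferase gene St2 (-3.04), the ABC transporter gene Mrp4 (2.63) and the carboxylesterase gene alpha-Est9 (1.09). Of 10 regulators 3 were listed and 0 passed, with foxo at 0.68, the ecdysone receptor gene EcR at 0.70 and tgo, the partner of bHLH-PAS sensors, at -0.67. The medians of the 4 lists were 0.70, -1.05, 0.97 and 0.68 in the order given, against 0.59 over named genes. No named gene changed by under 1.5-fold, so a list's median depends mainly on which direction held more of its genes. Nothing is read from these medians.

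The members nearest to the 1.5-fold limit in the authors' deposited table were Cyp12d1-d, with a fold of 1.5, and Ugt35E1, with 1.51. Transcripts just outside the limit carry no gene name here, so no family member can be given for them.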

How the data were processed

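Per the labels' protocols, wing disc RNA was copied to cDNA with oligo-dT primers and Cy3-labelled for NimbleGen arrays. The deposited table holds log2 values of 16637 transcripts on 8 arrays, and the submitters' processing notes name RMA and Partek without versions. RMA is meant to make array distributions alike, which can hide a shift shared by most genes. The deposited distributions were not fully alike, with those of wildtype replicate 1 wider than the others. The build and probe design were not given in the sources used. The authors' deposited table of 4379 transcripts gives names, p-values, a wildtype over mutant ratio, and signed folds and F statistics, treated as scores. Its p-values and F statistics were not used for results, and its folds only to choose members and to name those nearest the limit.

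Named genes (3850, of which 2541 matched RefSeq by symbol and 1079 by synonym, as did 32 and 17 of the members) were represented by their transcript with the highest mean, and 12258 unnamed transcripts by themselves. limma 3.58.1 (R 4.3.3; lmFit, eBayes, genotype only, Benjamini-Hochberg over 16108 features, threshold 0.05) gave the changes and calls. Residual degrees of freedom were 2 and prior degrees 2.213. In 10 simulated data sets of that size it recovered 30% to 47% of 100 features changed by 1 and 94% to 100% of 100 changed by 2 on the log2 scale, with 3 to 15 false among 131 to 159 calls. The simulated noise was independent, with 1 variance per feature for both genotypes. In the data wildtype replicates lay further apart than mutant replicates (median gaps 0.40 and 0.17 over named genes), so these rates may not hold. The array number limits precision.

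Members and lists were chosen with earlier results of these data known. Arrays are shown for the 6 highest and 6 lowest changes of a family, and for all members of a small one. For each other list the 3 genes with the smallest adjusted p are named. Members with several transcripts, in gene runs or nearest the limit are also named, and further genes were chosen after their values were seen. Neighbours are consecutive RefSeq protein-coding genes by start. Python 3.11.15, pandas 2.3.3 and matplotlib 3.10.9 were used. The alternatives covered replicates, pairing, normalization, dim probes, gene summary and moderation. Sequences were not used, and 1 listed P450 gene is not reported here.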

Additional observations from a re-analysis of the deposited data

Results flagged for a closer look

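Of 98 sets of 4 arrays (49 members in each genotype), 4 had 1 array apart from the other 3 by Dixon's criterion. Chance gives about 1 in 20 such sets for 4 independent values. Arrays sharing a first number were closely correlated, so that rate is no guide to this count. GstE12 read 11.57 on wildtype array 1_1, against 11.37 to 11.40 on the other wildtype arrays. Cyp310a1 read 10.20 on wildtype array 2_1, against 10.48 to 10.53. Cyp6a14 read 8.36 on mutant array 2_2, against 8.20 on the other 3. Ugt35E1 read 8.75 on mutant array 1_2, against 8.94 to 8.98. Each gap is smaller than that gene's change between genotypes.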

How the results depend on the processing

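Over all features 1169 passed the limma threshold, and 23 of the 49 members. Averaging by the second number gave 12365 and 49, treating the 8 arrays as separate samples 7626 and 43, and a random block on the first number 3327 and 37. A trend in eBayes gave 1826 features. Quantile normalization on top gave 1479 features and 26 members, and centring each array on its median 1303 and 26. With the first number as a replicate block shared by both genotypes the counts were 1772 and 27. The labels do not say that the numbers pair the genotypes, and with 2 numbers the replicate differences of mutant and wildtype correlated at 0.307 over features. Leaving out 1 array or 1 averaged replicate gave 0 to 4856 features and 0 to 45 members. The extremes came without mutant replicate 1 (0 features, 2022 at an unadjusted p under 0.05), without mutant replicate 2 (16 features) and without wildtype replicate 2 (4856 features). With 1 replicate left in a genotype, its spread is taken from the other genotype. Of 49 members 48 kept their direction under every alternative run on them (21 for 40 members and 20 for the 9 left out as dim), and Ugt35E1 ranged over these left-out replicates from -1.3 without wildtype replicate 1 to 0.1 without wildtype replicate 2. With features dim in both genotypes left out 40 members remained and 28 passed. In that fit 1490 features passed, against 1169 in the main fit, although fewer features were tested. The share passing thus rose over all features too, and nothing is read from the rise among members. No probe-level signals were at hand to set values against background.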

Other observations

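Among ecdysone-making genes of the fixed list, the mutant replicates differed (replicate 1 minus replicate 2) by 0.01 for spok, 0.16 for phm, -0.03 for sad, 0.05 for shd and -0.22 for spo. The wildtype replicates differed by 1.25 for spok, 1.12 for phm, 0.78 for sad, 0.10 for shd and -0.47 for spo, the only one of these genes that was higher in the mutant (0.64). Cyp4g1 had a positive wildtype gap (1.79), as had the first 4 of these genes, whereas Ugt35E1 (-1.40), Ugt35E2 (-1.56), Ugt37C2 (-1.50) and Cyp313a4 (-1.61) had a negative one. These are values only, and what differed between the wildtype replicates was not tested.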
